A study of Drosophila melanogaster with 2 samples.

Results

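The regions described here are the Spps-GFP binding sites at divergent gene pairs, that is, at promoters where 2 protein-coding genes start close together and are read away from each other. Of the 3260 reproducible peaks of the study, the list thresholded by the irreproducible discovery rate (IDR), 532 qualified (16.3%, exact 95% interval 15.1 to 17.6). A peak was taken when its summit, the deposited point of highest enrichment, lay within 500 bp of the transcription start sites (TSSs) of a minus-strand gene and a plus-strand gene. The minus-strand TSS had to be at the lower coordinate and the TSSs at most 1000 bp apart. Where several pairs of TSSs qualified, values refer to the pair closest to the summit, which gave 525 distinct gene pairs. In all, 573 gene pairs with 1086 genes had a qualifying summit. A single gene pair qualified at 504 of the peaks, 2 gene pairs at 26 and more than that at 2. The extreme case was the pre-mod(mdg4) cluster of mod(mdg4) segments annotated as separate genes, where 21 gene pairs met at 1 summit.

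The study was an anti-GFP ChIP-seq experiment on whole Drosophila melanogaster embryos aged 0 to 12 h, from a transgenic line that stably expresses Spps with GFP fused to its C-terminal end. There was 1 group with 2 biological replicates, named as such in the labels. Chromatin was sonicated to a size range of 200 to 800 bp, and per the listings that accompany the samples the same control served both replicates. Whole embryos hold every cell type and a span of stages, so that a peak does not show in which cells or at which stage the protein was bound. No second condition, untagged line or mutant was analysed here, and the report is therefore a description of peaks and genes with no test between groups. The lists give no read counts, so that the depth of the libraries is unknown. Intervals cover counting over peaks, genes or gene pairs only, and neither peaks nor genes are replicates.

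Spps, named in full Sp1-like factor for pairing sensitive-silencing, belongs to the zinc finger proteins of the Sp/KLF type and is known for its action at Polycomb response elements, the DNA elements that recruit Polycomb group silencing complexes. Divergent promoters are frequent in the compact fly genome and are typical of housekeeping genes, which are active in most cells. The stretch between the TSSs of such a pair serves as the upstream region of both genes, and it is usually depleted of nucleosomes when the genes are active. Housekeeping promoters of Drosophila often carry the DNA replication-related element (DRE), the site of the factor DREF, or elements such as Motif 1, the site of M1BP, where regulated promoters more often carry a TATA box or GAGA sites.

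The intergenic stretches of 6 pairs with strong peaks show where the summit fell. Each line gives the plus strand of the whole interval between the TSSs in the RefSeq sequence of assembly release 6 (dm6 coordinates), from the base after the minus-strand TSS to the base before the plus-strand TSS. Capitals mark the 41 bases centred on the summit. The pairs were chosen among strong peaks with no annotated exon in the interval, to show genes of different function: Art3/mRpS10 is chr3R:15229409-15229664, Tcs5/CHMP2B chr3L:5139396-5139618, CG13390/CG17294 chr2L:8376798-8377034, Lon/PIG-F chr3L:19612200-19612454, Cp190/CG4338 chr3R:15275242-15275521 and brm/Arl1 chr3L:15982870-15983134.
Art3/mRpS10: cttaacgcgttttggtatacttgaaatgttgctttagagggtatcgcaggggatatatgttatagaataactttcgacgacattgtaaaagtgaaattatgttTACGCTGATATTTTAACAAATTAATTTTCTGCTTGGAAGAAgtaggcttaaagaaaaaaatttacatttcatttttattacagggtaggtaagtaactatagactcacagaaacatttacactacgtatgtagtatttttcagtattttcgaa
Tcs5/CHMP2B: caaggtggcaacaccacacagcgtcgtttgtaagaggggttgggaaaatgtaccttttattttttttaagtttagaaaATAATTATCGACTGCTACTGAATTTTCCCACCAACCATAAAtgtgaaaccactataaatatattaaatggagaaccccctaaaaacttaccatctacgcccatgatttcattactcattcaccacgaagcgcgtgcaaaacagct
CG13390/CG17294: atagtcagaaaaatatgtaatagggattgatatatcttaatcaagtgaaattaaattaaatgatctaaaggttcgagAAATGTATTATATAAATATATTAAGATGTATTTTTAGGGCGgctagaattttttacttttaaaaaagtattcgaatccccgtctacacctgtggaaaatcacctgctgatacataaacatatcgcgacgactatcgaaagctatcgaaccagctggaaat
Lon/PIG-F: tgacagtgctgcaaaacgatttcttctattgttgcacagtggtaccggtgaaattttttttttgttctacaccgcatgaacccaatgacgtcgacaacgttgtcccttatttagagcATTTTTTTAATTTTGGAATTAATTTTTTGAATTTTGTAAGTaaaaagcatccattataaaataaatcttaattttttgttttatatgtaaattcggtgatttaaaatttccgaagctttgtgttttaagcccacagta
Cp190/CG4338: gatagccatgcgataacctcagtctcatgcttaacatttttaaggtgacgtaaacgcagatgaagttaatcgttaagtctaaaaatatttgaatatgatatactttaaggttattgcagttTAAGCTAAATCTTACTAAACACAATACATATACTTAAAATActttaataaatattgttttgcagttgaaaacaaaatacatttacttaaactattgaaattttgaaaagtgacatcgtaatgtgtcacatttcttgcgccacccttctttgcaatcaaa
brm/Arl1: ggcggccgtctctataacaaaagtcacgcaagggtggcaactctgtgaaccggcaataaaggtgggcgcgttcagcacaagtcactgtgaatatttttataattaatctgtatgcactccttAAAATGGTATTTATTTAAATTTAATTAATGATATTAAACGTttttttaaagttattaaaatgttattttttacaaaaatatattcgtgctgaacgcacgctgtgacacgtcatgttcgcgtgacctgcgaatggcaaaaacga

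The capitals fell near the middle of each of these stretches and were rich in A and T. Their GC content was 26.8% in Art3/mRpS10, 34.1% in Tcs5/CHMP2B, 19.5% in CG13390/CG17294 and Cp190/CG4338, and 12.2% in Lon/PIG-F and brm/Arl1. The remaining bases of the same stretches had 30.7% GC in Art3/mRpS10, 39.0% in Tcs5/CHMP2B, 33.2% in CG13390/CG17294, 34.1% in Lon/PIG-F, 30.5% in Cp190/CG4338 and 41.1% in brm/Arl1. None of the 6 stretches contained the DRE word TATCGATA. These stretches are chosen examples and not a sample of the set. Of all 532 summits, 437 lay between the TSSs and 429 had a lower GC content than 200 bp away. At RpS27/Nup37, with a signal of 278, the 41 bases had 51.2% GC and the rest of the interval 32.4%. Base composition and motifs over all 532 summits are described further on.

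Pairs of genes that share an upstream region held Spps-GFP summits more often than genes without such a partner. The annotation gave 13945 protein-coding genes with 19607 TSSs, of which 5052 genes (36.2%) belonged to at least 1 of 2667 divergent pairs. A summit within 500 bp of both TSSs was present at 573 of the 2667 pairs (21.5%, 19.9 to 23.1), and 1086 of the 5052 genes (21.5%, 20.4 to 22.7) were in such a pair. Counting a summit within 500 bp of any TSS of a gene, 1243 of the 5052 genes in pairs had one (24.6%, 23.4 to 25.8), against 654 of the 8893 genes in no pair (7.35%, 6.82 to 7.92), a 3.35-fold higher share. A summit between the genes of a pair counts for both of them, which raises the count per gene. Genes with more TSSs have more ways to be in a pair and to be near a summit, and this was not adjusted for. Of the 1388 peaks within 500 bp of a protein-coding TSS, the 532 at divergent pairs were 38.3% (35.8 to 40.9).

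The peaks were on all large chromosome arms. There were 114 on 2L, 101 on 2R, 116 on 3L, 153 on 3R and 48 on X. A summit was present at 23.0% of the divergent pairs of 2L, 19.2% of those of 2R, 23.7% on 3L and 26.1% on 3R, and at 12.7% (9.57 to 16.3) of the 403 pairs of X. The X share lay below the intervals of the other large arms, of which that of 2R (15.9 to 22.7) overlapped the interval of X. On chromosome 4, 0 of 11 pairs had one, which allows a share of up to 27.3%.

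Summits sat between the genes and close to the middle of the interval. The summit lay strictly between the TSSs of its pair at 437 of 532 peaks (82.1%, 78.6 to 85.3). The positions allowed by the rule put 43.5% of their length between the TSSs. That share takes no account of a general upstream position of promoter summits. Of the 856 other promoter summits 700 also lay upstream of their nearest TSS, beside 439 of the 532 at divergent pairs. Lying upstream was therefore not particular to the divergent pairs. Among the 437 summits the median distance to the midpoint was 39.5 bp (quartiles 17.5 and 73.5 bp), and the median position was 0.491 of the way across the interval from the minus-strand to the plus-strand TSS (quartiles 0.369 and 0.649). Neither strand was preferred, with 274 of the 532 summits nearer the minus-strand TSS, 257 nearer the plus-strand TSS and 1 at equal distance. The nearer TSS was a median of 104 bp away (76 to 135 bp) and the farther one 191 bp (145 to 259 bp). In the replicate lists 436 of 531 matched summits (82.1%) of replicate 1 and 433 of 529 (81.9%) of replicate 2 lay between the same TSSs. Replicate summits were matched within 200 bp of the IDR-list summit, so that the matching itself favours similar shares.

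**Figure D1:**
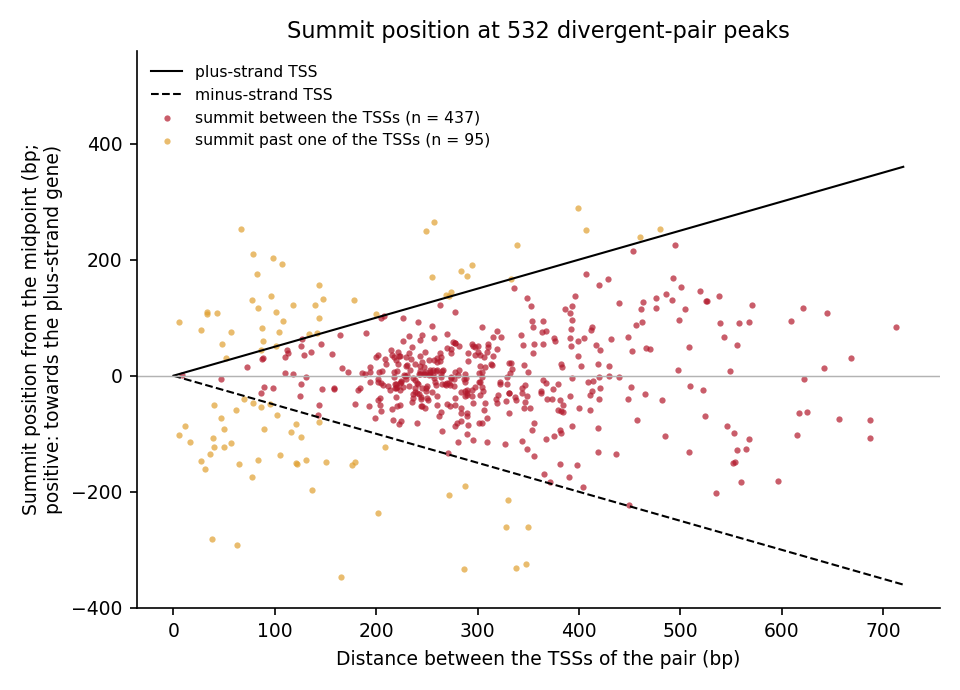
Summit position at the 532 divergent-pair peaks, as the distance in bp from the midpoint between the TSSs (positive towards the plus-strand gene), against the distance between the TSSs in bp. Each point is 1 peak, the solid and dashed lines are the TSSs, 437 summits lie between the lines and 95 past one of them, and the densest part of the cloud is around the midpoint of intervals of 200 to 349 bp.

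Summits at divergent pairs were nearer to a TSS than those at other promoters. Of the divergent-pair summits, 439 of 532 lay upstream of their nearest protein-coding TSS, at a median of 104 bp (quartiles 76 and 134.5 bp). Of the 856 other promoter summits 700 lay upstream, at a median of 187.5 bp (111 to 286 bp). Counting summits on both sides of the TSS, the median position was -93 bp at divergent pairs and -154.5 bp at the other promoters. The requirement of a TSS on either side of the interval shortens the distance to the nearest one, so that these medians are not like for like.

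TSSs 200 to 349 bp apart were more frequent at the peaks than among all annotated pairs. They were found at 271 of the 532 peaks (50.9%, 46.6 to 55.3), against 768 of the 2667 annotated pairs (28.8%, 27.1 to 30.6). Peaks take the spacing of the TSSs closest to the summit, and annotated pairs that of their least distant TSSs. These shares therefore differ in unit and measure. Spacing at the peaks had a median of 276.5 bp (quartiles 216 and 366.5 bp, range 6 to 713 bp). Over all annotated pairs the median was 301 bp and the quartiles were 163 and 502 bp. Measured as for all pairs, the 573 pairs with a summit had a median of 266 bp and quartiles of 199 and 349 bp. In pairs of 200 to 349 bp with the summit between the genes, which were 250 peaks, the summit was a median of 99 bp from the nearer and 165 bp from the farther TSS.

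The share of pairs with a summit was highest at middle spacings. It was 18.2% (14.6 to 22.2) of 429 pairs with TSSs 1 to 100 bp apart and 19.0% (15.1 to 23.5) of 357 pairs at 101 to 200 bp. At 201 to 300 bp it was 37.8% (33.7 to 42.1) of 542 pairs, and at 301 to 400 bp 33.5% (28.9 to 38.4) of 400 pairs. It was 18.7% (14.2 to 23.9) of 267 pairs at 401 to 500 bp and 5.65% (4.03 to 7.68) of 672 pairs at 501 to 1000 bp. The intervals at 201 to 400 bp did not overlap those of shorter or wider pairs. A wider pair leaves a shorter stretch within 500 bp of both TSSs, which lowers its chance of qualifying. With a search of equal length for every pair, within 250 bp of the midpoint, an alternative chosen after the data were seen, the shares in the same order were 15.9%, 17.9%, 37.5%, 32.3%, 16.9% and 9.08%.

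**Figure D2:**
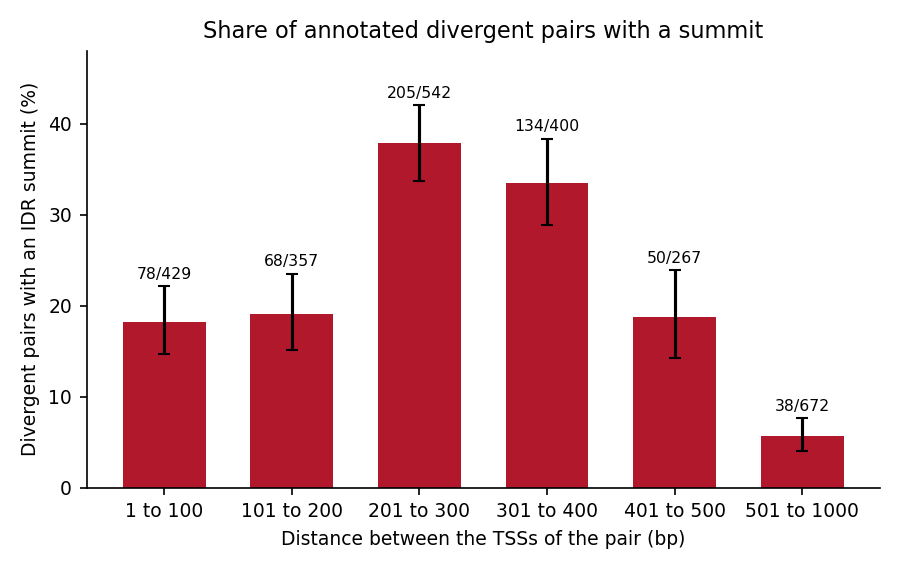
Share of annotated divergent gene pairs with a reproducible summit within 500 bp of both TSSs (%), by the distance between the TSSs in bp. Bars are shares, whiskers exact 95% intervals over gene pairs, and the numbers above them pairs with a summit over all pairs, with the highest bars of 37.8% and 33.5% at 201 to 300 and 301 to 400 bp.

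The share of summits between the TSSs was lower at narrow pairs, though above the share of length in each bin up to 500 bp. With TSSs 1 to 100 bp apart, 8 of 50 summits (16.0%) lay between them, where length alone gives 6.30%. At 101 to 200 bp it was 34 of 62 (54.8%, length share 17.1%), at 201 to 300 bp 189 of 203 (93.1%, length share 33.7%) and at 301 to 400 bp 114 of 122 (93.4%, length share 53.4%). At 401 to 500 bp 51 of 54 summits (94.4%) lay between the TSSs, where length gives 79.9%, and at 501 to 1000 bp all 41 did, which the rule fixes at that spacing. Among the 95 summits outside the interval, 48 lay past the minus-strand and 47 past the plus-strand TSS. They were a median of 66 bp inside the one gene (quartiles 27.5 and 98.5 bp) and 187 bp upstream of the other gene's TSS (127.5 to 292.5 bp).

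The strongest peaks of the set were at pairs of genes with different functions. The highest signal was at Art3/mRpS10 (3R 15229373 to 15229701), between an arginine methyltransferase gene and a gene of the small mitochondrial ribosomal subunit, with an IDR-list signal of 1228. Its signal was 792 in replicate 1 and 443 in replicate 2, and its summit was 124 bp from the Art3 and 133 bp from the mRpS10 TSS, 257 bp apart. Next was Chro/Ssl1 (3L 22878731 to 22879076; signal 1203, 741 in replicate 1 and 461 in replicate 2), the genes of the chromatin architectural protein Chromator and of a subunit of the general transcription factor TFIIH. Its TSSs were 105 bp apart and its summit lay 84 bp inside Chro, 189 bp upstream of Ssl1. These 2 peaks had the highest values of the set in both replicate lists, in reverse order in replicate 2.

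Further down the list the position of the summit varied with the spacing. CG11309/CG7632 (3L 21304398 to 21304731) had a signal of 1122 (694 in replicate 1, 428 in replicate 2), with TSSs 39 bp apart and the summit 87 bp inside CG11309. At CG5611/Mtl (3R 27635983 to 27636315), where Mtl encodes a small GTPase, the signal was 979 (619 in replicate 1, 352 in replicate 2) and the summit lay 120 bp from CG5611 and 232 bp from Mtl. The pair mRpS23/CenG1A (2L 13835312 to 13835618), a mitochondrial ribosomal protein gene and a gene of the centaurin family, had TSSs 492 bp apart and its summit near CenG1A, at 115 bp against 377 bp from mRpS23. Signal was 947 in the IDR list, 583 in replicate 1 and 359 in replicate 2.

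In Tcs5/CHMP2B (3L 5139347 to 5139651) the summit lay 99 bp from Tcs5, which acts in tRNA modification, and 125 bp from CHMP2B, a component of the ESCRT-III membrane machinery. Its signal was 931, 595 in replicate 1 and 331 in replicate 2. CG13390/CG17294 (2L 8376739 to 8377038) had a signal of 881 (516 in replicate 1, 356 in replicate 2) and its summit 98 bp and 140 bp from the TSSs of these genes. At eIF4EHP/CG18428 (3R 24109025 to 24109354), where eIF4EHP is a cap-binding translational repressor, the signal was 760 (450 in replicate 1, 307 in replicate 2) and the GC content at the summit 7.32%, among the lowest of the set. Mkk4/SLIRP2 (3R 8650803 to 8651110), with a kinase gene of the JNK pathway, had a signal of 687 (388 in replicate 1, 290.3 in replicate 2) and its summit 147 bp and 141 bp from the TSSs.

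The other peaks of the 15 strongest had IDR-list signals of 644 to 685. They were at Pdrg1/Pal1, Lon/PIG-F, Stt3A/bves, Reps/l(2)gd1, tank/CG12194 and Fbw5/CG9147. Lon encodes a mitochondrial protease, PIG-F a protein of GPI anchor synthesis, Stt3A the catalytic subunit of oligosaccharyltransferase and l(2)gd1 an ESCRT regulator known for its effect on Notch trafficking. Stt3A/bves had TSSs 609 bp apart, the widest of these 15, with the summit 398 bp from Stt3A and 211 bp from bves. At tank/CG12194 the summit lay 151 bp inside tank and 499 bp from the CG12194 TSS, the edge of what the rule allows.

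Several strong summits outside the interval were at pairs with very close TSSs. The 15 strongest of this kind were Chro/Ssl1, CG11309/CG7632, tank/CG12194, Fbw5/CG9147, mRpL23/CG9004, CG8372/CG8360, Pex11ab/CG8320, CG13126/CG4709, E(z)/Cnep1r2, CG1275/Elp5, CG8892/CG34126, CG4741/Adck1, phr6-4/CG2608, CG10747/Pyroxd1 and Vha100-2/Vti1b. Their signals ranged between 327 and 1203. E(z), the histone H3 lysine methyltransferase of Polycomb repressive complex 2, had its TSS 16 bp from that of Cnep1r2. The summit lay 107 bp inside E(z) and 123 bp upstream of Cnep1r2, with a signal of 422 (274 in replicate 1, 152 in replicate 2). Of the Elongator gene Elp5 and CG1275, with TSSs 33 bp apart, the summit was 89 bp inside Elp5 and 122 bp upstream of CG1275, at a signal of 395.

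The pairs with the narrowest and the widest spacing had signals of 113 to 157, where the median of the set was 154. The narrowest were CG7246/HP1b, with a gene of the HP1 heterochromatin protein family, and CG3032/CG4593, both with TSSs 6 bp apart. Their signals were 146 and 113, and their summits lay 89 bp inside HP1b and 100 bp inside CG3032. The widest was spirit/CG12065 at 713 bp, where spirit encodes a serine protease of the Toll pathway, with a signal of 157. Next were Sin3A/Amph, with a corepressor gene, and app/CG32100, both 687 bp apart, with signals of 139 and 119. Across the 532 peaks spacing and signal had a Spearman correlation of -0.11, a description over peaks of the same lists.

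At the limit of the 500 bp window, 3 peaks had their more distant TSS within the last 10 bp. They were tank/CG12194 at 499 bp, eIF5B/CG46463 at 500 bp and Rok/RpS19a at 493 bp, with signals of 645, 116 and 106. No summit lay within 10 bp outside that limit. No pair came near the limit of 1000 bp, since the widest spacing of a member was 713 bp.

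In 7 gene pairs there were 2 qualifying peaks. These were Brf/sds22, CG6550/Mtap, M1BP/CG8202, RpS27/Nup37, Snx21/aph-1, imd/Dp1 and mrva/mus312. At Brf/sds22, where Brf is a subunit of the RNA polymerase III initiation factor, the stronger peak had a signal of 423 with its summit 193 bp from Brf and 64 bp from sds22. Its weaker neighbour had a signal of 144 and a summit 137 bp inside sds22. At M1BP/CG8202, the gene of the Motif 1 binding protein, summits of signal 251 and 173 lay 110 bp and 317 bp from the M1BP TSS. Both of these matched the same replicate 1 peak, of signal 151, and different replicate 2 peaks of 99.0 and 49.8. Such sharing of a replicate peak touched 6 of the 532 peaks in replicate 1 and 2 in replicate 2.

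Peak signal at divergent pairs was close to that of the rest of the reproducible list. The median IDR-list signal was 154 (quartiles 120 and 236) at the 532 divergent-pair peaks, against 158 (120 and 258) at the 856 other promoter peaks and 155 (120 and 223) at the 1872 peaks over 500 bp from a protein-coding TSS. In the replicate 1 list the matched medians were 101, 101 and 95.3 in that order, and in the replicate 2 list 58.3, 63.2 and 61.1. Signal is the authors' value on a scale that differs between lists. Of the 1000 strongest reproducible peaks 168 were at divergent pairs (16.8%, 14.5 to 19.3), close to their 16.3% of the whole list, and of the 100 strongest 20 were. Summits between the TSSs had a median signal of 155 and those past a TSS 147.

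Nearly all of the peaks were found in both replicates. The IDR list was derived from the replicate lists, so that this presence was largely set by how the peaks were chosen. A summit within 200 bp was present for 531 of 532 in the replicate 1 list and for 529 in the replicate 2 list, each of which holds 30000 peaks, and for 528 (99.2%, 98.1 to 99.8) in both. CG5355/Klp31E had no match in replicate 1, and Sec3/COX7B, Miro/spas and Top3beta/wuho had none in replicate 2. Fewer were among the 3260 strongest peaks of a replicate, with 474 in replicate 1 and 419 in replicate 2. The replicate summits were a median of 31.5 bp apart (quartiles 13 and 64 bp), and 232 of 528 (43.9%) were within 25 bp. Over the 528 peaks log2 signal in the replicates had a Pearson correlation of 0.807 and a Spearman correlation of 0.737, across peaks that were chosen from both replicates and called against the same control. All 532 summits had the same position in the list called on both replicates together. The IDR list was derived from that list too, so that this adds no separate evidence.

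**Figure D3:**
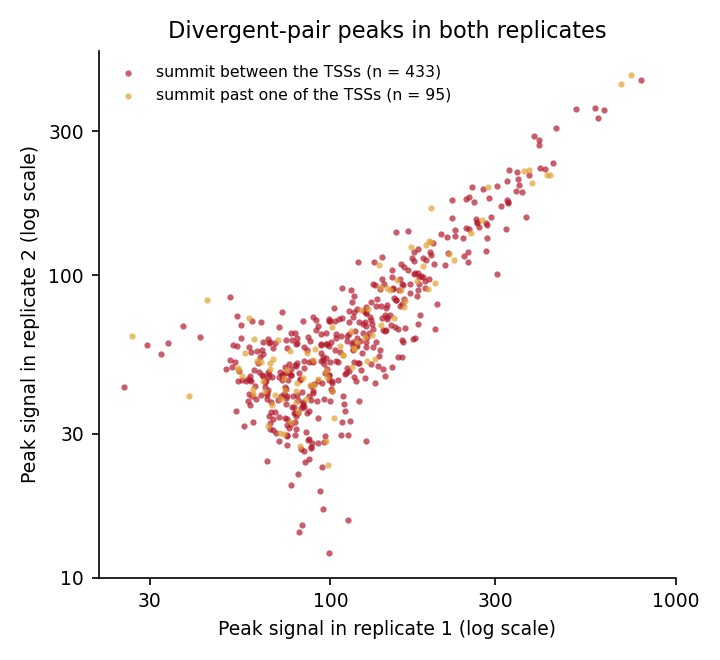
Peak signal of replicate 2 against that of replicate 1 for the 528 divergent-pair peaks matched in both lists, on log axes with the authors' arbitrary units. Points are peaks, coloured by summits between the TSSs (n = 433) and past one of them (n = 95), and both kinds lie along the same band (Spearman correlation 0.737 over all 528).

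The bound pairs held genes with and without a given name. CG numbers in place of a given name were the symbol of 327 of the 1086 genes (30.1%), against 34.8% of all 5052 genes in divergent pairs. The genes were sorted by symbol into 25 functional lists, which held 208 of the 1086 genes (19.2%), against 15.3% of the 5052. In each count that follows, the first number is the genes in a pair with a summit and the second the genes of the list in any divergent pair. The share of all genes in divergent pairs was 21.5%.

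Genes of the translation apparatus were split over 6 lists. Cytoplasmic ribosomal protein genes were in a bound pair in 23 of 53 cases (43.4%, 29.8 to 57.7), an interval above the 21.5% of all genes in pairs. Mitochondrial ribosomal protein genes were in a bound pair in 16 of 58 (27.6%, 16.7 to 40.9), an interval that includes it. Genes of tRNA and rRNA modification had 11 of 21 (52.4%, 29.8 to 74.3), among them the Elongator genes Elp4, Elp5 and Elp6 and both methyltransferase genes Trmt6 and Trmt61, whose products act together. Translation factors had 11 of 30 (36.7%, 19.9 to 56.1), aminoacyl-tRNA synthetases 7 of 23 (30.4%, 13.2 to 52.9) and ribosome biogenesis genes 4 of 13 (30.8%, 9.09 to 61.4). With 25 lists read against 1 value and no test, an interval that excludes 21.5% is a description only.

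Ribosomal protein pairs had moderate signals. At Ripalpha/RpL7 the signal was 347 and the summit lay 12 bp upstream of RpL7. The pair Dref/RpL13, the gene of the DRE-binding factor and a ribosomal protein gene, had a signal of 230 with its summit 1 bp inside RpL13. RpL34a/Trmt61 joined a ribosomal protein gene to a tRNA methyltransferase gene, with a signal of 253. Ripalpha/RpL7 and Dref/RpL13 fell outside the rule for named genes and were chosen after their values were seen, as were Cp190, pont, Spps, Su(z)12, Sfmbt, pzg, RPA1/Mcm2, Bub3/Cap-D2, Atat/Shc, RpL34a/Trmt61, RpS25/CG4820 and the further genes given as members of a list.

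Genes of transcription and RNA processing were bound at about the share of all genes in pairs. Mediator and general transcription factor genes had 9 of 37 (24.3%) and RNA polymerase subunits 5 of 19 (26.3%). Splicing and RNA 3′ end processing genes had 10 of 34 (29.4%). Their strongest pairs were Taf5/Pex6, with a TFIID subunit gene (signal 425, 264 in replicate 1 and 154 in replicate 2), 140up/Polr2B, with the gene of the large RNA polymerase II subunit B (signal 293), and U2af50/PIG-Q, with a splicing factor gene (signal 315). At Taf5/Pex6 the summit was 155 bp and 146 bp from the TSSs, which were 301 bp apart.

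Chromatin genes at bound pairs included Spps itself and other Polycomb group genes. Of 14 Polycomb group genes in divergent pairs 4 had a summit, E(z), Sfmbt, Spps and Su(z)12 (28.6%, 8.39 to 58.1). Spps/CG13609 had TSSs 89 bp apart and a summit 25 bp from Spps and 64 bp from CG13609, with a signal of 161 (88.9 in replicate 1, 72.9 in replicate 2), close to the median of the set. The GC content at that summit was 61.0%. The line carries a tagged Spps transgene, whose part in the signal at this locus was not tested. Sfmbt/CG5439 and Su(z)12/Pfdn6 had signals of 118 each, far below E(z)/Cnep1r2 at 422. Trithorax group and chromatin remodelling genes had 7 of 27 (25.9%, 11.1 to 46.3), led by brm/Arl1 (signal 477, 288 in replicate 1 and 180.1 in replicate 2), where brm encodes the ATPase of the SWI/SNF complex and Arl1 a Golgi GTPase, with the summit 143 bp and 123 bp from the TSSs. Next of these was Sirt6/pont at 476, with a sirtuin gene and the gene of an ATPase of the INO80 and Tip60 complexes.

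Insulator and architectural protein genes had 5 of 11 (45.5%, 16.7 to 76.6), namely Chro, Cp190, Dref, M1BP and pzg. The Cp190/CG4338 peak had a signal of 572 (348 in replicate 1, 219 in replicate 2), with its summit 142 bp from Cp190, a common cofactor of insulator proteins, and 139 bp from CG4338. Dref and M1BP are the genes of the factors that bind the DRE and Motif 1, and pzg encodes a partner of DREF. Signals at M1BP/CG8202 and CG12974/pzg were 251 and 110. Histone modification and corepressor genes had 8 of 44 (18.2%), among them Art3 with the strongest peak of the set, Gcn5, Sin3A and Su(var)205, the gene of HP1.

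The cell division, trafficking and protein turnover lists were near the share of all genes in pairs. DNA replication and repair genes had 11 of 42 (26.2%) and cell cycle and mitosis genes 11 of 41 (26.8%). Their strongest pairs were mrva/mus312, with the gene of a nuclease scaffold (signal 221), and orb/Cdc16, with a subunit gene of the anaphase-promoting complex (signal 350). Vesicle transport genes had 21 of 83 (25.3%, 16.4 to 36.0), kinesin, dynein and tubulin genes 6 of 26 (23.1%; strongest Faf2/Grip71, signal 239) and nuclear pore and transport genes 6 of 27 (22.2%; strongest RpS27/Nup37, signal 278). Proteasome subunits had 6 of 26 (23.1%; strongest l(2)37Bb/Rpn3, signal 234), the ubiquitin system 6 of 33 (18.2%; strongest tum/Uba3, signal 260) and chaperones 5 of 26 (19.2%; strongest Hsc70-5/CG8531, signal 210). Respiratory chain and ATP synthase genes had 10 of 45 (22.2%; strongest ND-ASHI/Fum1, signal 282) and mitochondrial import genes 1 of 5, Tom7 in CG8229/Tom7 (signal 146).

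Developmental regulators were seldom in a divergent pair at all. Of 123 developmental transcription factor genes 8 (6.50%) were in one, against 79.5% of the 73 mitochondrial and 60.2% of the 88 cytoplasmic ribosomal protein genes. A summit was present at 2 of those 8, E(spl)mdelta-HLH and usp. CG43116/E(spl)mdelta-HLH, with a Notch target gene of the Enhancer of split complex, had a signal of 414 (247 in replicate 1, 179 in replicate 2), its TSSs 625 bp apart and its summit 250 bp and 375 bp from them. Signalling pathway genes had 3 of 31 (9.68%, 2.04 to 25.8), namely Rheb, sav and yki. The strongest was yki/Gpat4, with the transcriptional effector gene of the Hippo pathway, at a signal of 121, its summit 2 bp inside Gpat4.

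RPA1/Mcm2 and Bub3/Cap-D2 were the pairs in which both genes belonged to the same list. RPA1/Mcm2 joins genes of the single-stranded DNA-binding protein and of the replicative helicase. Bub3/Cap-D2 joins genes of a spindle checkpoint protein and a condensin subunit. Such pairs were not counted among all annotated divergent pairs, and most genes of the bound pairs were in no list. RPA1/Mcm2 had TSSs 519 bp apart, a signal of 140 and a summit 114 bp from Mcm2. Bub3/Cap-D2 had TSSs 230 bp apart, a signal of 178 and a summit 117 bp and 113 bp from them. Replicate signals were 55.2 in replicate 1 and 62.3 in replicate 2 for RPA1/Mcm2, and 113 and 64.2 in the same order for Bub3/Cap-D2.

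Summits at divergent pairs lay in a trough of GC content, as did the other reproducible summits. The 41 bases centred on the summit had a median GC content of 26.8% (quartiles 19.5 and 34.1%), where 41-base windows 200 bp to either side of the same summits had 41.5%. The GC content was lower at the summit than 200 bp away at 429 of the 532 peaks (80.6%, 77.0 to 83.9). Other promoter summits had a median of 29.3%, with 41.5% 200 bp to either side. Summits over 500 bp from a TSS had 29.3%, with 43.9% 200 bp to either side. Midpoints of the pairs at the peaks had 26.8%, against 34.1% at the midpoints of the 2094 divergent pairs without a summit. These midpoints were not matched for spacing, which had quartiles of 216 and 366.5 bp at the peaks. At the pairs without a summit the quartiles were 156 and 556.75 bp. Protein-coding TSSs had 43.9%.

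Stronger peaks had a lower GC content at the summit. The median was 24.4% in the 133 strongest and 29.3% in the 133 weakest of the divergent-pair peaks. Over all 532 the Spearman correlation of GC content and signal was -0.16, a description over peaks that share libraries and control. Recovery of fragments can depend on base composition, and its part in these values was not tested.

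**Figure D4:**
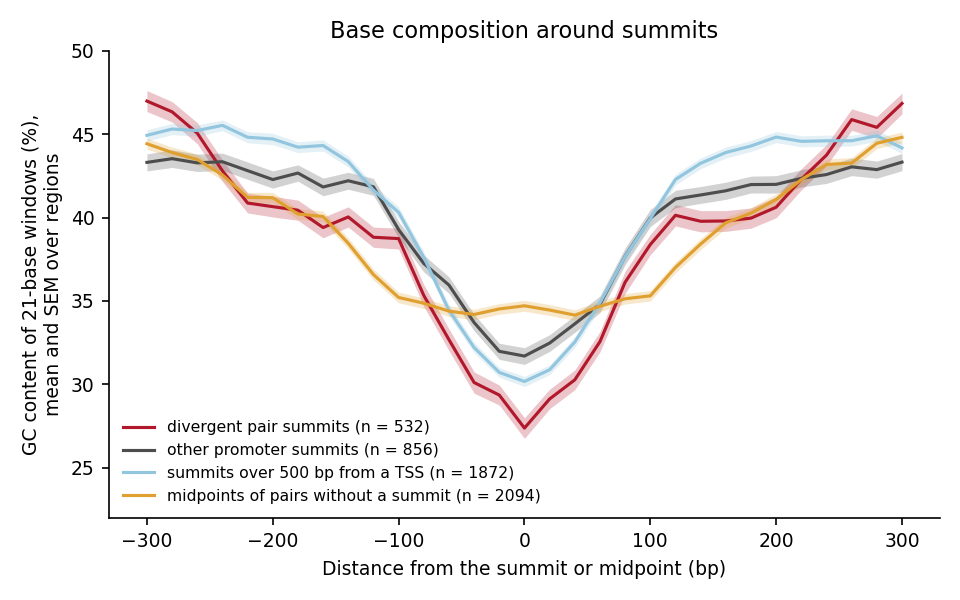
Mean GC content (%) of 21-base windows by distance in bp from the summit, or from the midpoint of pairs without a summit, with the SEM over regions as a band. Divergent-pair summits have 27.4% at the summit and 47.0% at 300 bp before it, and the midpoints of pairs without a summit a shallower and broader trough, with 34.7% at the midpoint and 44.4% at 300 bp before it. Other promoter summits have 31.7% at the summit and 43.3% at 300 bp before it, and summits over 500 bp from a TSS 30.2% and 44.9%. The pairs were not matched for spacing.

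The DRE was found near a larger share of divergent-pair summits than of other promoter summits, with intervals that did not overlap. The word TATCGATA, read on both strands, lay within 100 bp of 54 of the 532 summits (10.2%, 7.72 to 13.0), against 31 of the 856 other promoter summits (3.62%, 2.47 to 5.10). It lay within 100 bp of 8.26% (7.12 to 9.52) of the midpoints of divergent pairs without a summit, of 6.43% of all protein-coding TSSs and of 0.160% of summits over 500 bp from a TSS. The divergent pairs without a summit therefore had it at a share whose interval overlapped that of the bound ones. Their midpoints were not matched to the bound pairs for spacing. Upstream summits lay a median of 104 bp from the nearest TSS at divergent pairs and 187.5 bp at other promoters. The part of this difference in the motif shares of these sets was not tested. The DRE was at a median of 64.5 bp from the summit, and 20 of the 54 had it within 50 bp. Peaks with a DRE had a median signal of 132 and those without one 157.

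Of the 54 peaks with a DRE within 100 bp, 3 are shown with their intervals. The lines give the same kind of interval as before, on the plus strand of assembly release 6, with the DRE in capitals. Atat/Shc at chr3L:9426759-9427009, with its summit at 9426885, was the strongest of the 54, with a signal of 470.3. RpL34a/Trmt61 at chr3R:26059268-26059495, with its summit at 26059399 and a signal of 253, had 2 of the words, and RpS25/CG4820 at chr3R:11216288-11216534, with its summit at 11216355 and a signal of 249, had the word beside its summit.
Atat/Shc: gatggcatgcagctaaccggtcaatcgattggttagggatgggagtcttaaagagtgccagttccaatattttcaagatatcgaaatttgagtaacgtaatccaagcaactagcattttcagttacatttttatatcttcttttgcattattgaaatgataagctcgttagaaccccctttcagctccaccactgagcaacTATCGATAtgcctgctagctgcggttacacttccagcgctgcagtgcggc
RpL34a/Trmt61: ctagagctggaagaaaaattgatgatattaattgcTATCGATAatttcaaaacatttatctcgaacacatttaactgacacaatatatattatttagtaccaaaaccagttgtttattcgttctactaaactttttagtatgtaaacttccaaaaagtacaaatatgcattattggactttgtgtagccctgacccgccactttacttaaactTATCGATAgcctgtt
RpS25/CG4820: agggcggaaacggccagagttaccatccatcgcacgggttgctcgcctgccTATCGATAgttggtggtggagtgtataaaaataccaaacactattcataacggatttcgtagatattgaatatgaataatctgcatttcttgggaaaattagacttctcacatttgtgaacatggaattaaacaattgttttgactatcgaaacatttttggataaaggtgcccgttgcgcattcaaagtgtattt

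The position of the DRE differed among these stretches. In RpS25/CG4820 it lay within the 41 bases centred on the summit, and in Atat/Shc and RpL34a/Trmt61 outside them. Those 41 bases had 26.8% GC in Atat/Shc, where the rest of the interval had 46.2%, and 26.8% in RpL34a/Trmt61, where the rest had 31.6%. In RpS25/CG4820 they had 39.0% and the rest 39.3%.

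The core of the insulator protein BEAF-32, CGATA, which also lies within the DRE, was within 100 bp of 43.8% (39.5 to 48.1) of divergent-pair summits, against 29.7% (26.6 to 32.9) of other promoter summits, but 41.2% of the midpoints of pairs without a summit and 37.2% of all TSSs. Motif 6, a housekeeping core promoter element, was near 2.63% (1.45 to 4.38), against 0.584% (0.190 to 1.36) of other promoter summits and 2.15% of midpoints without a summit. Motif 1 was at 3.20% of divergent-pair and 2.34% of other promoter summits. In the same order, the words searched for Motif 7 were at 6.77% and 5.26%, and the E-box CAGCTG at 10.2% and 7.71%. The words searched under the name Motif 7 were CAACNCTA or otherwise CAGCNCTA. These are shares of the 8-base words and not of the full motif. All TSSs had 1.44% for Motif 6, 3.27% for Motif 1, 5.0% for the Motif 7 words and 13.5% for the E-box.

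The GAGA word had a lower share at divergent-pair summits than at other promoter summits, and the TATA box word a higher one. GAGAG, the word of the GAGA factor, was within 100 bp of 11.7% (9.05 to 14.7) of divergent-pair summits, against 22.8% (20.01 to 25.7) of other promoter summits, 14.8% of midpoints without a summit and 24.9% of all TSSs. The core of the Sp and KLF family, GGGCGTG or otherwise GGGCGGG, was at 3 of 532 divergent-pair summits (0.564%, 0.116 to 1.64). It was at 12 of 856 other promoter summits (1.40%, 0.726 to 2.44), an overlapping interval from few counts, and at 1.38% of midpoints without a summit. A relaxed form of the core, NNGGCG or else NNGGTG with A or G at each N, was at 23.1% of divergent-pair and 25.1% of other promoter summits. All TSSs had 1.95% for the core and 32.2% for the relaxed form. GCCAT, the core of the Polycomb recruiter Pho, was at 23.9% and 24.2% (30.8% of all TSSs), and the Combgap repeat GTGTGT at 7.52% and 10.2% (13.5% of all TSSs). The word TATAAA was at 48.9% (44.5 to 53.2) and 39.6% (36.3 to 43.0), against 26.8% of all TSSs and 38.1% of midpoints without a summit, beside the lower GC content given above, whose part in these shares was not tested. The Initiator, read as TCANTC or as TCANTT with G or T at the N, was at 41.5% and 42.6%, and CAGGTAG, the word of the early activator Zelda, at 0.564% and 0.467%. All TSSs had 50.3% for the Initiator and 1.08% for the Zelda word. A word in the window is a match of letters and was not tested for occupancy.

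**Figure D5:**
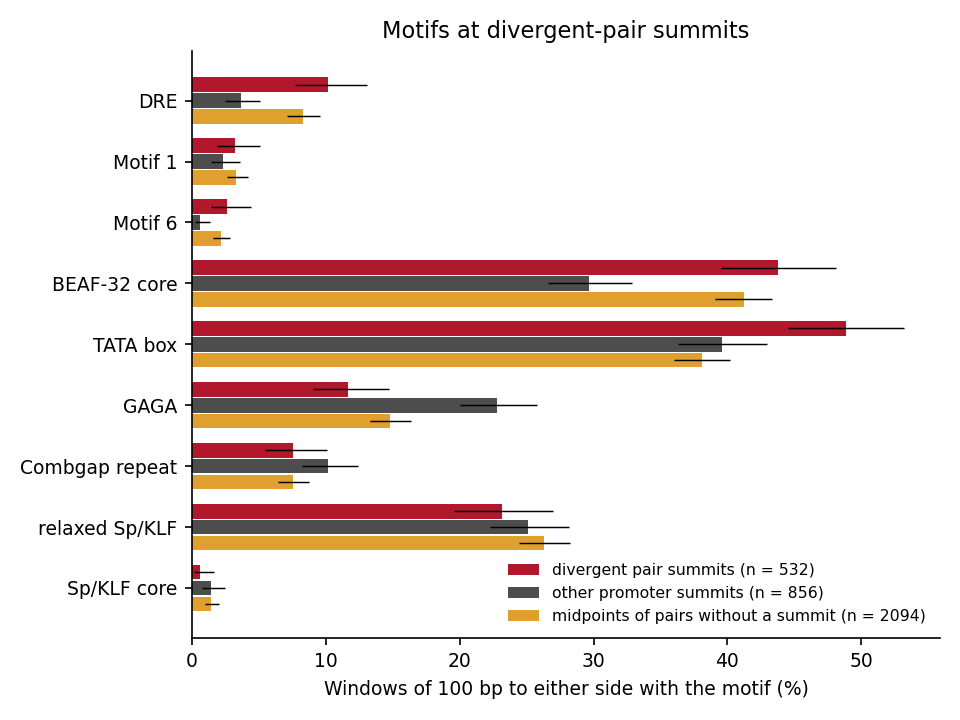
Share of windows (%) with each motif within 100 bp, on both strands, at divergent-pair summits (n = 532), other promoter summits (n = 856) and midpoints of divergent pairs without a summit (n = 2094). Bars are shares and lines exact 95% intervals over regions, with the DRE at 10.2%, 3.62% and 8.26% and GAGA at 11.7%, 22.8% and 14.8% in that order.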

How the data were processed

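The data were ChIP-seq peak lists of Spps-GFP on dm6 per the labels. Not given in the sources used here: peak caller, aligner and IDR threshold. The authors derived 1 list from each replicate with a control, 1 from both replicates and the IDR list from these, per the listings. The deposited signal is the value of the authors' caller, with a different scale in each list. The deposited −log10 q-value was not used. The deposited summit offset gave the summit, converted to a 1-based position. Each of the 2 replicate lists holds 30000 peaks and no read counts, so depth is unknown.

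Protein-coding TSSs came from Ensembl release 115 (BDGP 6.54), and sequence and gene descriptions from RefSeq assembly release 6. Of the 1086 genes in bound pairs, 685 had a description. Replicate summits were matched within 200 bp. Motifs were searched as exact words on both strands. Shares carry exact (Clopper-Pearson) 95% intervals, and a count of 0 allows 3 counts. No test was run, since the design has 1 group and peaks are not replicates. Members, gene lists and motifs were chosen with earlier results of these data known. The 25 lists were symbol patterns, and some patterns that caught wrong genes were corrected after their values were seen.

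Named pairs were the 15 strongest peaks, the strongest of each list, the narrowest and widest pairs, those at the window limits, the 15 strongest with the summit outside the interval and the pairs with 2 peaks. Others are stated as chosen after their values were seen. Some of the genes so named are not reported here. Alternatives were other windows, spacings and TSS choices, the 1000 strongest peaks, each replicate alone and other motif windows. The steps were checked on simulated data. Software was pandas 2.3.3, SciPy 1.17.1, NumPy 2.4.6 and matplotlib 3.10.9 under Python 3.11.15.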

Additional observations from a re-analysis of the deposited data

How the results depend on the processing

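No paired analysis was possible because the 2 replicates belong to 1 group. Values that moved beyond the interval of the reported share, beyond 1.5 times a reported count, or beyond the spread of the single-replicate values for a median, were these. With a window of 250 bp, 15.8% of pairs had a summit, median spacing was 245 bp and the median signal percentile among reproducible peaks was 54.1, against 49.1 as reported. With TSSs at most 500 bp apart, 26.7% of pairs had a summit and median spacing was 265 bp. With only the outermost TSS of each gene, 78.1% of summits lay between the TSSs and median spacing was 270 bp. Among the 1000 strongest peaks there were 168 at divergent pairs, 6.60% of pairs had a summit, median spacing was 261.5 bp, 68 genes were in a functional list, 6.55% of summits had a DRE and 34.5% the BEAF-32 core. The median GC content at the summit was 24.4% with a window of 250 bp, with only the outermost TSS and among the 1000 strongest peaks. Within 50 bp of the summit the shares were 3.57% for the DRE, 18.4% for the BEAF-32 core, 33.1% for the TATA box and 5.08% for GAGA. Within 200 bp they were 20.1%, 66.0%, 63.0% and 26.5% in that order, with 2.07% for the Sp/KLF core and 5.64% for Motif 6. With summits matched within 100 bp, 92.9% of peaks were in both replicates. With each replicate alone, taking its 3260 strongest peaks, 495 to 546 peaks qualified, 19.8 to 22.1% of pairs had a summit, 81.0 to 82.4% of summits lay between the TSSs, median spacing was 270 to 276 bp, the median percentile was 48.4 to 51.7, 189 to 209 genes were in a list and 9.34 to 10.3% had a DRE. The gene pairs of the replicates alone overlapped at 410, which was 69.7% of the 588 of replicate 1 and 77.5% of the 529 of replicate 2. Without read counts, the depth that limits weaker peaks cannot be given.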
